A study of Homo sapiens with 36 samples.

Results

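The genes described here are 29 genes of cholesterol synthesis and of the lipid genes controlled by sterol regulatory element-binding proteins (SREBPs), out of the 29872 genes in the deposited table. They were chosen by name, and the table's gene identifiers were matched to those names with the GENCODE v44 annotation of GRCh38. The matching used no measured value, and all 29 were found. RNA had been sequenced from LNCaP cells, an androgen-responsive line grown from a human prostate cancer metastasis. The cells received vehicle, AU2-94 at 1 or 2 µM, atirmociclib at 1 or 2 µM, or ribociclib at 2 µM, for 24 h or 72 h, which gave 12 groups of 3 biological replicates and 36 libraries. AU2-94 and atirmociclib are inhibitors selective for the cell-cycle kinase CDK4, and ribociclib inhibits CDK4 and CDK6. Wells for 72 h were seeded with fewer cells than wells for 24 h, so that time in culture and seeding density cannot be told apart in any comparison of the time points. All values come from a single cell line.

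Cells make cholesterol from acetyl-CoA through the mevalonate pathway, which leads to farnesyl diphosphate, and then through squalene and lanosterol. When sterols are scarce, the escort protein SCAP carries the SREBPs from the endoplasmic reticulum to the Golgi, where they are cleaved. The released part then enters the nucleus and switches on genes of sterol and fatty acid synthesis, while INSIG proteins hold the complex back when sterols are plentiful. Prostate cancer cells are known for active lipid synthesis, which androgen also raises. The 29 genes were ordered by role. Of these, 7 act between acetyl-CoA and farnesyl diphosphate and 11 between squalene and cholesterol. A further 5 regulate SREBPs or move sterols, and 6 make and desaturate fatty acids.

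Upstream sequence was examined because SREBPs bind promoters together with the factors NF-Y and Sp1. In the RefSeq promoter table (GRCh38.p14; 250 bases before to 50 bases after each start) 25 of the 29 genes had an entry, with 34 promoters between them. The NF-Y box CCAAT, searched on both strands, was present in 24 of these 34 promoters (70.6%) and in 34.6% of all 35116 promoters. The Sp1 box GGGCGG was found in 30 of the 34 (88.2%) and in 45.0% of all promoters. The E-box CACGTG was found in 14.7% and 7.26%. The sterol regulatory element, searched as TCACNCCAC, was found in 1 member promoter, that of SREBF2, and in 1.13% of all promoters. Matches of different motifs were counted separately, whether or not they overlapped. They describe letters in a window and not binding. Bases upstream of 5 genes described below are printed 5′ to 3′ on the gene's strand, with matches to the sterol regulatory element or the NF-Y box in either orientation in capitals. SREBF2 was chosen as the gene with the sterol element, HMGCS1, STARD4 and SCD as genes with higher counts than vehicle at 24 h, and EBP as a gene with lower counts at both times. Each stretch is up to 200 bases long and stops before the gene's first annotated exon. That of SREBF2 lies opposite an exon of the antisense RNA SREBF2-AS1.
SREBF2, chr22:41832905-41833104, plus strand: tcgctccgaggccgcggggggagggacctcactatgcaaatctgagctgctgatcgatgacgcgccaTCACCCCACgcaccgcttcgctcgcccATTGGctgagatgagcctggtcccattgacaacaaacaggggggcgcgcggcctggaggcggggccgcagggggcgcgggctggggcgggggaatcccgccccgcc
HMGCS1, chr5:43313513-43313612, minus strand: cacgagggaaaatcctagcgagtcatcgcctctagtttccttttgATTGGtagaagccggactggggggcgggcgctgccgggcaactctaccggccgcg
STARD4, chr5:111512591-111512735, minus strand: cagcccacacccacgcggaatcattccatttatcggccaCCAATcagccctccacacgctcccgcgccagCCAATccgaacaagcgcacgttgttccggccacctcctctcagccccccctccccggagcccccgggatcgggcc
SCD, chr10:100347033-100347232, plus strand: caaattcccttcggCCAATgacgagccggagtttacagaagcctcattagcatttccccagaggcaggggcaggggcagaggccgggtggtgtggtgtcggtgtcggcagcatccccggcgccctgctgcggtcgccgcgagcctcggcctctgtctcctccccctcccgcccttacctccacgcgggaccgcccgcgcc
EBP, chrX:48521608-48521798, plus strand: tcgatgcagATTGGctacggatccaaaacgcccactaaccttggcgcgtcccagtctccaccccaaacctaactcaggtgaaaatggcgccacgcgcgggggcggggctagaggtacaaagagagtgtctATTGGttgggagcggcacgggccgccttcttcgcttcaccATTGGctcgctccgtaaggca

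Values are normalised counts, that is, reads per gene scaled by the authors to make libraries comparable. Their sum per library ranged from 20675156 to 22692555, with 19708 to 21405 genes above 0. The 29 genes together took 0.679% to 1.09% of a library. Their lowest single value was 179, in a vehicle library for STARD4. Per kilobase of exon, FASN had the highest mean over all libraries (7802 normalised counts per kb), ahead of SCD (4461) and ACLY (2324), and MVK had the lowest (65.1). The prostate luminal markers KLK2, KLK3, FOLH1, KRT8, KRT18 and HOXB13 were at 2239 or more in every library. The basal markers TP63 and KRT5, the leukocyte gene PTPRC and the endothelial gene PECAM1 had a median of 0 and never exceeded 7.09, while ALB, a liver gene, stayed between 0 and 21.7. The collagen gene COL1A1 was at 194 to 644, and its part in the results was not tested. Differences from the vehicle libraries of the same time were tested with limma on log2(normalised count + 1) over all genes that passed a filter on low values. All 29 genes passed that filter at both times. A gene is called higher or lower where its p, adjusted over all genes by the Benjamini-Hochberg method, was at most 0.05. The 5 comparisons at a time point share the same 3 vehicle libraries. In bulk RNA, fewer cells expressing a gene and less of its RNA per cell cannot be told apart.

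At 24 h, more of the 29 genes were called higher than lower in each treatment. The number called was greatest with atirmociclib, where most enzymes between squalene and cholesterol, the sterol carrier gene STARD4 and the fatty acid desaturase SCD were among them. With atirmociclib at 2 µM, 21 of the 29 genes were higher and 2 lower, against 18.6% and 16.2% of the 16137 genes tested. At 1 µM the counts were 19 higher and 2 lower (16.6% and 15.4% of all genes). Ribociclib gave 17 higher and 2 lower (16.8% and 15.2%). With AU2-94 at 1 µM, 10 were higher and 1 lower (14.3% and 13.5%), and at 2 µM 9 were higher and 3 lower (16% and 14.9%). The median log2 fold change of the 29 genes, where 1 is a 2-fold difference, was 0.12 and 0.10 with AU2-94 at 1 and 2 µM, 0.30 and 0.27 with atirmociclib at 1 and 2 µM, and 0.27 with ribociclib. The median over all genes was between -0.0032 and 0.0049 in these comparisons. With every library set to the same total, the counts for atirmociclib at 2 µM became 15 higher and 4 lower, and those for AU2-94 at 1 µM 9 higher and 3 lower. After quantile normalisation AU2-94 at 1 µM gave 11 higher and 3 lower. In 21 genes at least 1 treatment gave a higher call at 24 h, in 3 a lower call and in 5 neither, and no gene had calls in both directions. Shares of all genes for calls combined over treatments were not determined.

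**Figure D1:**
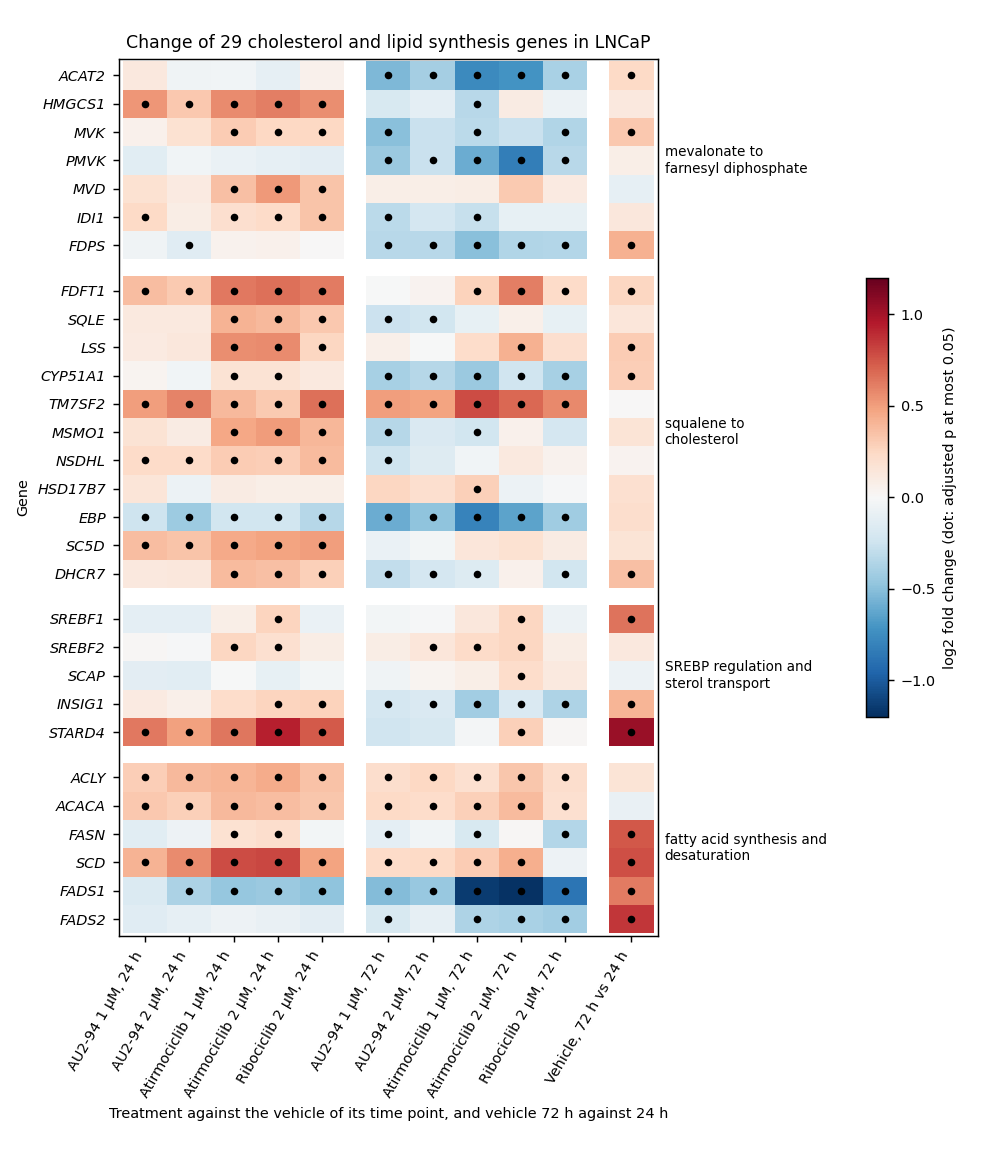
Colour shows the log2 fold change of each of the 29 genes (vertical axis, grouped by role) for each treatment against the vehicle of its time point and, in the last column, for vehicle at 72 h against 24 h (horizontal axis), with a dot where the adjusted p was at most 0.05. Dots on red predominate at 24 h, 7 genes are blue and dotted in all 5 treatments at 72 h, and the vehicle column has 14 dotted red cells and no dotted blue one.

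Of the regulators, SREBF2 encodes the SREBP form tied mainly to sterol synthesis. Its normalised counts were 5445, 5415 and 5352 in the 3 vehicle libraries, 5428, 5758 and 5165 with AU2-94 at 1 µM and 4876, 5740 and 5497 at 2 µM. They were 6391, 6504 and 6517 with atirmociclib at 1 µM, 5848, 6414 and 6276 at 2 µM, and 5944, 5438 and 5828 with ribociclib. All 6 atirmociclib libraries lay above vehicle, whereas AU2-94 and ribociclib overlapped it. The log2 fold change was 0.26 ± 0.06 (SE; adjusted p = 0.00145) with atirmociclib at 1 µM and 0.19 ± 0.06 (adjusted p = 0.0119) at 2 µM. The latter was 0.12 and not called after quantile normalisation (adjusted p = 0.116) and with equal totals (adjusted p = 0.123). When replicate 2 of the same group was left out, it was 0.16 (adjusted p = 0.0558).

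SREBF1, which encodes the form tied mainly to fatty acid synthesis, was at 8477, 7371 and 6508 in vehicle at 24 h. It was at 6768, 7070 and 6678 with AU2-94 at 1 µM, 6724, 6700 and 7023 at 2 µM, and 6879, 7088 and 7081 with ribociclib. Atirmociclib gave 7950, 7921 and 7676 at 1 µM and 8452, 8878 and 9469 at 2 µM. Only the last group was called (0.27 ± 0.07, adjusted p = 0.00376), and its lowest library lay below the highest vehicle library. Without vehicle replicate 1, the highest, atirmociclib at 1 µM would also be called higher (0.18, adjusted p = 0.0193). Without vehicle replicate 3, the lowest, SREBF1 would be called lower with AU2-94 (-0.21 at both doses, adjusted p = 0.0113 at 1 µM and 0.00869 at 2 µM) and with ribociclib (-0.17, adjusted p = 0.0287). SREBF1 shares 556 exon bases with RAI1 on the opposite strand, and the sources used here do not say whether strand was used in counting.

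SCAP, the escort, was at 2824, 2604 and 2462 in vehicle at 24 h and between 2283 and 2731 in the 15 treated libraries, with log2 fold changes from -0.14 to -0.01 and no call. With equal totals it would be called lower with AU2-94 at 1 and 2 µM and with atirmociclib at 2 µM (-0.17 in each), and without vehicle replicate 3 with AU2-94 (-0.18 at both doses). INSIG1, which retains SCAP and is itself a sterol-responsive gene, was at 1908, 1900 and 1577 in vehicle. It was at 1782, 1954 and 2057 with AU2-94 at 1 µM, 1673, 1786 and 2211 at 2 µM, and 2033, 2131 and 2089 with atirmociclib at 1 µM. Atirmociclib at 2 µM gave 2229, 2219 and 2002, and ribociclib 2269, 2031 and 2192. All 9 libraries of atirmociclib and ribociclib lay above vehicle, and the gene was called higher in these last 2 groups, by 0.26 ± 0.09 (adjusted p = 0.0336) and 0.27 ± 0.09 (adjusted p = 0.0296). Each call was lost in 3 of 6 cases when 1 library was left out, among them vehicle replicate 3, without which the values were 0.17 (adjusted p = 0.183) and 0.18 (adjusted p = 0.166). They were also lost with equal totals (0.19 and 0.21).

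STARD4, whose product carries sterol between membranes, was higher in all 5 treatments at 24 h, with the largest increase of the 29 genes with AU2-94 at 1 µM, atirmociclib at 2 µM and ribociclib. Its normalised counts were 268, 179 and 290 in vehicle, 337, 390 and 400 with AU2-94 at 1 µM and 350, 339 and 331 at 2 µM. Atirmociclib gave 330, 466 and 345 at 1 µM and 460, 442 and 483 at 2 µM, and ribociclib 449, 381 and 379. Every treated library lay above every vehicle library. Changes were 0.64, 0.49, 0.64, 0.94 and 0.74 in the same order, each with an SE of 0.15 and adjusted p from 0.000102 to 0.0191. The call for AU2-94 at 2 µM rested on the lowest vehicle library, replicate 2, without which it was 0.28 (adjusted p = 0.128), and it was also lost without replicate 1 of that group (0.47, adjusted p = 0.0533).

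In the mevalonate arm, HMGCS1, which condenses acetyl-CoA units ahead of mevalonate, was higher in all 5 treatments at 24 h. It was at 1589, 1407 and 1376 in vehicle, 2211, 1942 and 2138 with AU2-94 at 1 µM, and 1802, 1660 and 2012 at 2 µM. With atirmociclib it was at 1998, 2228 and 2265 at 1 µM and 2056, 2260 and 2392 at 2 µM, and with ribociclib at 1955, 2226 and 2263. No treated library overlapped vehicle, and the lowest of the 15 came from AU2-94 at 2 µM. The log2 fold change was 0.32 ± 0.08 in that group (adjusted p = 0.00686) and 0.53 to 0.62 in the other 4 (adjusted p from 1.44e-05 to 0.000126). The kinase MVK, the decarboxylase MVD and the isomerase IDI1 were each called higher with atirmociclib at both doses and with ribociclib, by 0.20 to 0.52, and IDI1 also with AU2-94 at 1 µM (0.24). The thiolase ACAT2 and the kinase PMVK had no call at 24 h, though with equal totals ACAT2 would be called lower with atirmociclib at 2 µM (-0.19, adjusted p = 0.037). Farnesyl diphosphate synthase, FDPS, was called only with AU2-94 at 2 µM, where it was lower (-0.15 ± 0.05, adjusted p = 0.0343), a call lost in 4 of 6 cases when 1 library was left out (down to -0.09, adjusted p = 0.186, without replicate 1 of that group). Of the 7 genes of this arm, 2, 1, 4, 4 and 4 were higher in that order of treatments (AU2-94 and atirmociclib by rising dose, then ribociclib), and 1 was lower, in the single case of FDPS.

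The arm from squalene to cholesterol, which has the most genes, held the most calls. Of its 11 genes, 4 were higher with AU2-94 at either dose, 9 with atirmociclib at either dose and 8 with ribociclib, and 1 gene, EBP, was lower in every treatment. The share of its genes called was the largest of the role groups with atirmociclib and ribociclib. With AU2-94 that of the fatty acid genes was larger (50% at 1 µM and 66.7% at 2 µM, against 45.5% at either dose). FDFT1, or squalene synthase, which commits farnesyl diphosphate to sterols, was at 3160, 3226 and 3008 in vehicle, 4082, 3835 and 4232 with AU2-94 at 1 µM and 3721, 3848 and 4142 at 2 µM. It was at 4592, 5051 and 4929 with atirmociclib at 1 µM, 4879, 5036 and 4954 at 2 µM and 4936, 4772 and 4749 with ribociclib. The treated libraries thus lay above vehicle without overlap, and all 9 atirmociclib and ribociclib libraries lay above all 6 AU2-94 libraries. The log2 fold changes were 0.37 and 0.32 with AU2-94 and 0.62 to 0.66 in the other 3 groups, each with an SE of 0.05 (adjusted p from 6.14e-09 to 8.4e-05).

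TM7SF2, a reductase that acts on the sterol after lanosterol has been demethylated, had another order of the treatments. It was at 2917, 3169 and 3027 in vehicle, 4312, 4365 and 4250 with AU2-94 at 1 µM, 4367, 4610 and 4816 at 2 µM and 4985, 4656 and 4761 with ribociclib. Atirmociclib gave lower values than these, 3898, 3975 and 4066 at 1 µM and 3639, 3621 and 4090 at 2 µM, which were still above vehicle in every library. The log2 fold changes were 0.51, 0.60, 0.39, 0.32 and 0.66 in the same order of treatments, each with an SE of 0.05 (adjusted p from 1.27e-08 to 9.46e-05).

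SC5D, which introduces a double bond late in the pathway, was at 1100, 1222 and 1209 in vehicle, 1592, 1442 and 1517 with AU2-94 at 1 µM and 1496, 1557 and 1411 at 2 µM. With atirmociclib it was at 1755, 1593 and 1483 at 1 µM and 1685, 1521 and 1742 at 2 µM, and with ribociclib at 1758, 1534 and 1696. No treated library overlapped vehicle, and the log2 fold changes ran from 0.34 to 0.50, each with an SE of 0.07 (adjusted p from 4.72e-05 to 0.00194). NSDHL, which takes part in removing methyl groups from the sterol ring, was also called higher in all 5 treatments, by 0.23 to 0.38. Squalene epoxidase (SQLE), lanosterol synthase (LSS), the methylsterol oxidase MSMO1 and the last reductase of the pathway, DHCR7, were called higher with atirmociclib and ribociclib, by 0.26 to 0.56, and not with AU2-94, where their values ran from 0.10 to 0.17. None of these genes passed the direct test of ribociclib against AU2-94 at 2 µM, so a difference between these compounds is not shown for them. HSD17B7, a ketoreductase of the same steps, had no call. Its counts are uncertain, since 410 of its bases match HSD17B7P2 with 99.5% identity.

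EBP, the sterol isomerase that acts just before SC5D, went the other way. Its counts at 24 h were 1302, 1320 and 1212 in vehicle, 1213, 1006 and 1010 with AU2-94 at 1 µM and 886, 930 and 1024 at 2 µM. They were 1093, 1078 and 1098 with atirmociclib at 1 µM, 1006, 1078 and 1196 at 2 µM and 1014, 978 and 1039 with ribociclib. Of the 15 treated libraries, 1, from AU2-94 at 1 µM, reached the range of vehicle. The log2 fold changes were -0.25, -0.43, -0.23, -0.23 and -0.34, each with an SE of 0.08 (adjusted p from 0.000365 to 0.0333). Those calls for the lower AU2-94 dose and for both atirmociclib doses were lost in 4, 5 and 4 of 6 cases when 1 library was left out (values from -0.24 to -0.17, adjusted p from 0.0644 to 0.15). For these 3 groups, leaving out vehicle replicate 1 or 2 was among those cases. EBP, on chromosome X from 48521799 to 48528716 on the plus strand of GRCh38, shares 36.4% of its exon bases with another annotated gene on the same strand, so that some reads may not be assigned to it.

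**Figure D2:**
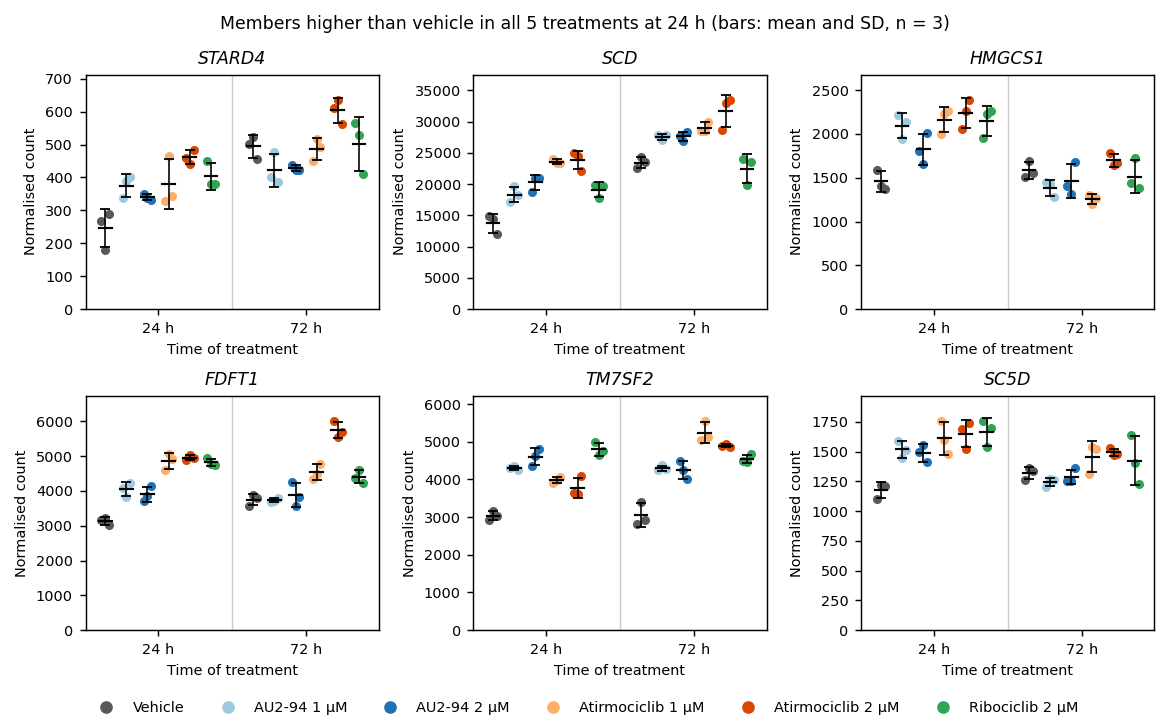
Normalised counts (vertical axes, from 0) of 6 genes in each of the 36 libraries, by treatment and time (horizontal axes). The genes were chosen among those called higher in all 5 treatments at 24 h, which favours the separation seen there. Points are libraries and bars the mean and SD of 3 replicates. At 24 h every treated point lies above the vehicle points in all 6 panels, and at 72 h this holds for all treatments only in TM7SF2.

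Among the fatty acid genes, SCD, which puts the first double bond into saturated fatty acids, changed most at 24 h. It was at 14813, 14408 and 11992 in vehicle, 17066, 19625 and 18310 with AU2-94 at 1 µM and 18782, 20992 and 20997 at 2 µM. With atirmociclib it reached 24006, 23328 and 23384 at 1 µM and 24957, 24467 and 22167 at 2 µM, and with ribociclib 19899, 17770 and 19692. All treated libraries lay above vehicle, with atirmociclib above the other treatments in every library. On the log2 scale the changes were 0.42, 0.56, 0.79, 0.80 and 0.48, each with an SE of 0.07 (adjusted p from 8.54e-08 to 0.000264).

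ACLY, which makes cytosolic acetyl-CoA from citrate, was at 9175, 10110 and 9280 in vehicle at 24 h, and at 11126, 12496 and 11522 with AU2-94 at 1 µM and 12261, 12828 and 12293 at 2 µM. Atirmociclib gave 12836, 11397 and 13836 at 1 µM and 13954, 12469 and 12572 at 2 µM, and ribociclib 12540, 11868 and 11929. The groups did not overlap vehicle, and the gene was called higher in each, by 0.30 to 0.45 with an SE of 0.06 (adjusted p from 1.98e-05 to 0.00154). ACACA, which turns acetyl-CoA into malonyl-CoA, was at 14879, 14662 and 14342 in vehicle, 19070, 18521 and 17464 with AU2-94 at 1 µM and 17046, 17946 and 18603 at 2 µM. It was at 18607, 18854 and 19989 with atirmociclib at 1 µM, 18862, 18869 and 19057 at 2 µM and 18084, 19259 and 18037 with ribociclib, again without overlap. It was called higher by 0.29 to 0.39 with an SE of 0.04 (adjusted p from 6.21e-07 to 2.64e-05). That call depended on the scaling. After quantile normalisation ACACA was not called with AU2-94 at 1 µM (0.12, adjusted p = 0.0769) or 2 µM (0.07, adjusted p = 0.329), atirmociclib at 2 µM (0.11, adjusted p = 0.0968) or ribociclib (0.08, adjusted p = 0.213).

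FASN, the fatty acid synthase, was called higher with atirmociclib only (0.19 ± 0.06 at 1 µM, adjusted p = 0.0276, and 0.21 ± 0.06 at 2 µM, adjusted p = 0.0132). FADS1, a desaturase of polyunsaturated fatty acids, was the other gene besides EBP and FDPS to be called lower at 24 h. It was at 2127, 2092 and 1989 in vehicle, 1661, 2047 and 1808 with AU2-94 at 1 µM and 1463, 1615 and 1690 at 2 µM. It was at 1588, 1509 and 1405 with atirmociclib at 1 µM, 1380, 1658 and 1534 at 2 µM and 1443, 1487 and 1508 with ribociclib. Except for AU2-94 at 1 µM, which overlapped vehicle and was not called (-0.18, adjusted p = 0.112), these groups lay wholly below vehicle, with log2 fold changes from -0.48 to -0.38 and an SE of 0.08 (adjusted p from 0.000117 to 0.00115). Without its replicate 2, AU2-94 at 1 µM was also called (-0.26, adjusted p = 0.0267). FADS2, the neighbouring desaturase gene, had no call at 24 h (-0.15 to -0.06). After quantile normalisation it would be called lower in all 5 treatments (-0.34 to -0.25, adjusted p from 0.00301 to 0.0212). Without vehicle replicate 3 it would be called lower with AU2-94 at 1 µM (-0.24, adjusted p = 0.0282) and ribociclib (-0.22, adjusted p = 0.0364).

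At 72 h the picture was different. Genes of the mevalonate arm were lower than vehicle or not called in every treatment, EBP and FADS1 were lower in all, and TM7SF2, ACLY and ACACA were still higher. With AU2-94 at 1 µM, 4 of the 29 genes were higher and 15 lower (15.4% and 17% of the 16341 genes tested). At 2 µM 5 were higher and 9 lower (14.2% and 15.3%). Atirmociclib at 1 µM gave 7 higher and 14 lower (20% and 19.8%), and at 2 µM 10 higher and 8 lower (20.9% and 19.6%). For ribociclib 4 were higher and 11 lower (15.5% and 15.4%). The median log2 fold changes were -0.19 and -0.12 with AU2-94, -0.10 and 0.07 with atirmociclib and -0.07 with ribociclib, beside medians over all genes of -0.0083 to 0.0059. The positive median with atirmociclib at 2 µM became -0.01 when every library was set to the same total. After quantile normalisation AU2-94 at 1 µM gave 6 higher and 11 lower. In 7 genes the call was lower in all 5 treatments (ACAT2, PMVK, FDPS, CYP51A1, EBP, INSIG1 and FADS1), and in 3 it was higher in all 5. What share of all genes had the same call in all 5 treatments was not determined, and the treatments share their vehicle libraries.

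FADS1 had the largest change of the 29 genes with atirmociclib and ribociclib at 72 h, and EBP with AU2-94. At 72 h it was at 3284, 3054 and 3224 in vehicle, 2634, 2082 and 2012 with AU2-94 at 1 µM and 2404, 2297 and 2271 at 2 µM. With atirmociclib it was at 1395, 1303 and 1620 at 1 µM and 1308, 1559 and 1341 at 2 µM, and with ribociclib at 1730, 1669 and 1800. The groups lay below vehicle without overlap, and every atirmociclib library lay below every library of the other treatments. The log2 fold changes were -0.52 and -0.46 with AU2-94, -1.15 and -1.19 with atirmociclib and -0.88 with ribociclib, each with an SE of 0.09 (adjusted p from 6.75e-09 to 0.0011). FADS2 was at 21533, 21097 and 22515 in vehicle, 19206, 19042 and 18874 with AU2-94 at 1 µM and 20839, 19080 and 20501 at 2 µM. It was at 17065, 16625 and 16830 with atirmociclib at 1 µM, 15625, 16650 and 17465 at 2 µM and 17024, 14283 and 17752 with ribociclib. All these values were below vehicle. The gene was called lower with atirmociclib and ribociclib (-0.41 to -0.37, SE 0.06, adjusted p from 3.41e-05 to 8.61e-05) and with AU2-94 at 1 µM (-0.19, adjusted p = 0.0218), but not at 2 µM (-0.11, adjusted p = 0.191). The call for AU2-94 at 1 µM was lost in 3 of 6 cases when 1 library was left out (vehicle replicate 3 or replicate 2 or 3 of the group, with values from -0.19 to -0.16), after quantile normalisation (-0.15) and with equal totals (-0.15). The genes share 490 exon bases on opposite strands.

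In the mevalonate arm, ACAT2 was at 1048, 1079 and 1109 in vehicle at 72 h, 744, 716 and 769 with AU2-94 at 1 µM and 848, 766 and 831 at 2 µM. It was at 624, 668 and 615 with atirmociclib at 1 µM, 648, 665 and 657 at 2 µM and 778, 900 and 789 with ribociclib. All treated libraries lay below vehicle, and the atirmociclib libraries lay below the others. The log2 fold changes ran from -0.76 to -0.39 with an SE of 0.07 (adjusted p from 5.01e-08 to 0.000203). Of its exon bases 17.2% lie opposite exons of TCP1, a more abundant gene, and reads of the pair cannot be told apart if strand was not used.

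PMVK was at 560, 568 and 505 in vehicle at 72 h, 393, 406 and 399 with AU2-94 at 1 µM and 447, 490 and 420 at 2 µM. Atirmociclib gave 355, 376 and 349 at 1 µM and 304, 334 and 281 at 2 µM, and ribociclib 400, 463 and 431. The values were lowest with atirmociclib at 2 µM, and no treated library reached vehicle. The changes from vehicle were -0.44, -0.27, -0.59, -0.83 and -0.33, each with an SE of 0.09 (adjusted p from 4.24e-07 to 0.0287). The value for AU2-94 at 2 µM was no longer called in 4 of 6 cases with 1 library left out (vehicle replicate 1 or 2, or replicate 1 or 3 of the group, with values from -0.26 to -0.21), nor after quantile normalisation (adjusted p = 0.0526) or with equal totals (adjusted p = 0.0503).

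FDPS was at 2467, 2509 and 2443 in vehicle at 72 h, 2037, 1968 and 1883 with AU2-94 at 1 µM and 2079, 1881 and 1938 at 2 µM. With atirmociclib it was at 1791, 1777 and 1688 at 1 µM and 2003, 1961 and 1810 at 2 µM, and with ribociclib at 1900, 2030 and 1898. All treated values were clear of vehicle, with log2 fold changes from -0.50 to -0.33 and an SE of 0.05 (adjusted p from 6.76e-07 to 0.000146). HMGCS1 no longer stood above vehicle, which was at 1504, 1697 and 1555. It was called lower with atirmociclib at 1 µM (1304, 1196 and 1263, -0.34 ± 0.09, adjusted p = 0.0066), and its values in the other 4 treatments were -0.19 to 0.10. MVK was called lower with AU2-94 at 1 µM, atirmociclib at 1 µM and ribociclib (-0.50, -0.33 and -0.36), and IDI1 with AU2-94 and atirmociclib at 1 µM (-0.33 and -0.28). MVD had no call. No gene of this arm was called higher at 72 h, and 5, 3, 6, 3 and 4 of the 7 were called lower in the order of treatments above.

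Between squalene and cholesterol, CYP51A1, which demethylates lanosterol, was at 2583, 3037 and 2820 in vehicle at 72 h, 2305, 2029 and 2048 with AU2-94 at 1 µM and 2247, 2235 and 2148 at 2 µM. Atirmociclib gave 2071, 2120 and 1996 at 1 µM and 2484, 2304 and 2349 at 2 µM, and ribociclib 2205, 2084 and 2102. The gene was lower than vehicle in every treated library. Its log2 fold change was -0.24 ± 0.06 with atirmociclib at 2 µM (adjusted p = 0.00421) and -0.45 to -0.35 elsewhere (adjusted p from 1.16e-05 to 0.000315). At 24 h it had been called higher with atirmociclib (0.17 at 1 µM and 0.18 at 2 µM). These 24 h calls were lost with equal totals (0.11 and 0.10), and in 3 and 4 of 6 cases when 1 library was left out, vehicle replicates 1 and 3 among them (down to 0.13). Without vehicle replicate 2 ribociclib would be called too (0.17, adjusted p = 0.0352). CYP51A1 shares 68.2% of its exon bases with another annotated gene on the same strand, which makes its counts uncertain.

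EBP was at 1514, 1583 and 1338 in vehicle at 72 h, 987, 926 and 1013 with AU2-94 at 1 µM and 1161, 1010 and 1003 at 2 µM. It was at 845, 889 and 813 with atirmociclib at 1 µM, 948, 879 and 1008 at 2 µM and 1105, 1135 and 1057 with ribociclib. No treated library came near vehicle, and the log2 fold changes were -0.60, -0.48, -0.80, -0.64 and -0.42, each with an SE of 0.08 (adjusted p from 1.27e-07 to 0.000311). TM7SF2, by contrast, was at 2808, 3409 and 2933 in vehicle, 4254, 4378 and 4264 with AU2-94 at 1 µM and 4477, 4258 and 4002 at 2 µM. It was at 5044, 5557 and 5131 with atirmociclib at 1 µM, 4887, 4931 and 4864 at 2 µM and 4484, 4474 and 4674 with ribociclib. It was again higher in every treated library, by 0.50, 0.48, 0.79, 0.69 and 0.58 with an SE of 0.06 (adjusted p from 6.41e-09 to 8.48e-06).

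FDFT1 remained above vehicle (3580, 3869 and 3807) with atirmociclib at 1 µM (4334, 4479 and 4787) and 2 µM (6015, 5549 and 5689) and with ribociclib (4376, 4601 and 4239). These differences were 0.27, 0.62 and 0.23 (SE 0.06, adjusted p from 9.3e-08 to 0.00525), while AU2-94 overlapped vehicle at both doses (-0.01 and 0.05). LSS was called higher with atirmociclib at 2 µM (0.43) and HSD17B7 with atirmociclib at 1 µM (0.28). SQLE was called lower with AU2-94 at 1 and 2 µM (-0.26 and -0.23) and DHCR7 in all treatments except atirmociclib at 2 µM (-0.29 to -0.16). MSMO1 was lower with AU2-94 and atirmociclib at 1 µM (-0.34 and -0.23) and NSDHL with AU2-94 at 1 µM (-0.24). SC5D had no call at 72 h (-0.08 to 0.18).

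**Figure D3:**
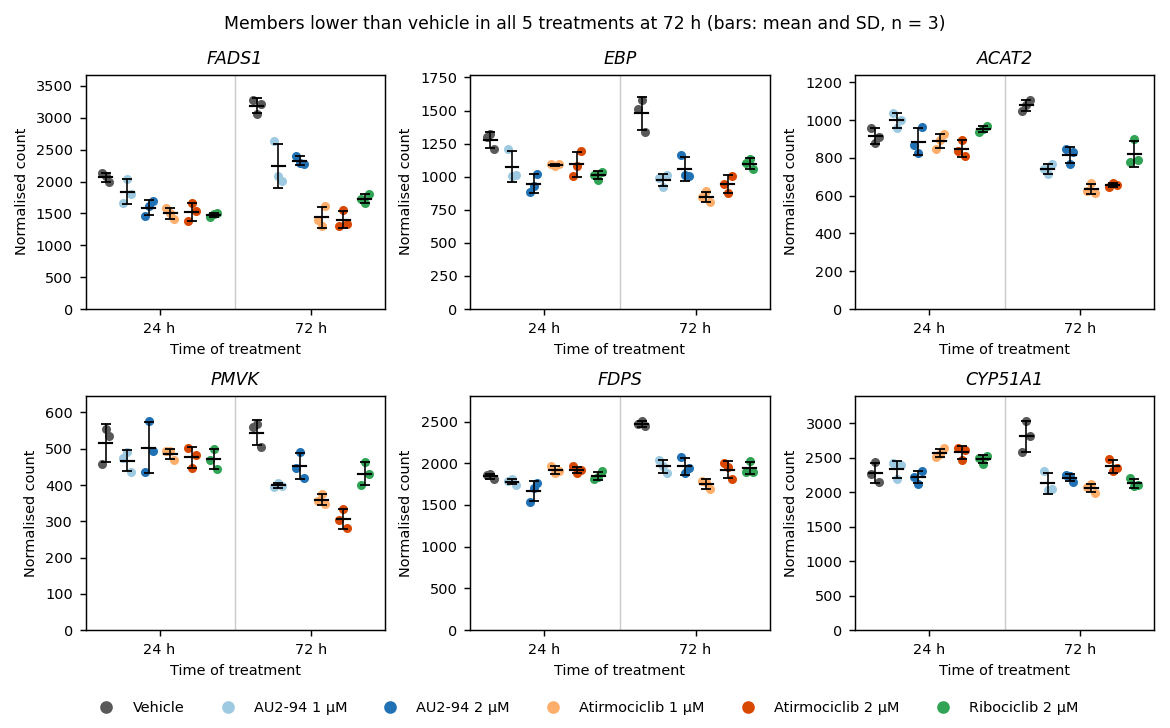
Normalised counts (vertical axes, from 0) of 6 genes called lower than vehicle in all 5 treatments at 72 h, in each of the 36 libraries by treatment and time (horizontal axes). Points are libraries and bars the mean and SD of 3 replicates. At 72 h no treated point reaches the vehicle points in any panel, and FADS1 is lowest with atirmociclib.

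Of the regulators at 72 h, INSIG1 was at 2288, 2377 and 2471 in vehicle, 2004, 2086 and 2053 with AU2-94 at 1 µM and 2226, 2030 and 2041 at 2 µM. Atirmociclib gave 1767, 1762 and 1795 at 1 µM and 1940, 2160 and 2179 at 2 µM, and ribociclib 1979, 1748 and 1786. Every treated library lay below vehicle, with log2 fold changes of -0.22, -0.18, -0.42, -0.19 and -0.37 and an SE of 0.06 (adjusted p from 1.39e-05 to 0.0269). The call was lost in 4 of 6 cases with 1 library left out for AU2-94 at 2 µM and in 2 of 6 for atirmociclib at 2 µM. Vehicle replicate 3 was among these, without which the values were -0.15 (adjusted p = 0.102) and -0.16 (adjusted p = 0.0719). After quantile normalisation it was not called with AU2-94 (-0.15 and -0.12), and with equal totals not at 2 µM (-0.15). SREBF2 was at 6198, 5923 and 5582 in vehicle, 6311, 6189 and 6367 with AU2-94 at 1 µM and 6144, 6723 and 6689 at 2 µM. It was at 7176, 6990 and 6632 with atirmociclib at 1 µM, 6787, 6824 and 7526 at 2 µM and 6434, 5910 and 6451 with ribociclib. The atirmociclib groups lay above vehicle and were called higher by 0.23 (adjusted p = 0.00182) and 0.26 (adjusted p = 0.000797). AU2-94 at 2 µM was called by a narrow margin (0.14, adjusted p = 0.0496) with 1 library inside the vehicle range. That call was lost with the replicate number as a block (adjusted p = 0.0648) and in 4 of 6 cases with 1 library left out, vehicle replicates 2 and 3 among them (values from 0.10 to 0.15). After quantile normalisation AU2-94 at 1 µM would also be called (0.16, adjusted p = 0.0374).

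SREBF1 was at 11482, 11100 and 12436 in vehicle at 72 h and was called with atirmociclib at 2 µM alone (14495, 13132 and 14111, 0.25 ± 0.06, adjusted p = 0.00117). With atirmociclib at 1 µM it was at 12808, 12070 and 13480, a change of 0.13 that was called only with the replicate block (adjusted p = 0.0415) or without vehicle replicate 3 (0.18) or replicate 2 of the group (0.17). The other 9 libraries lay between 10647 and 12012. SCAP was at 2436, 2621 and 2453 in vehicle and was called higher with atirmociclib at 2 µM (3176, 2734 and 2870, 0.22, adjusted p = 0.0224). This call was lost with equal totals (0.15, adjusted p = 0.123) and without replicate 1 of the group (0.16) or vehicle replicate 1 or 3 (0.20 and 0.21). STARD4 was at 503, 525 and 457 in vehicle, and its treated values overlapped that range except with AU2-94 at 2 µM (439, 423 and 423, -0.21, adjusted p = 0.174) and atirmociclib at 2 µM. In the latter it was at 612, 637 and 564 and was called higher (0.29, adjusted p = 0.0442), a call lost with equal totals (0.21) and in 4 of 6 cases with 1 library left out (vehicle replicate 1 or 3, or replicate 1 or 2 of the group, with values from 0.23 to 0.30). Without replicate 2 of its group, AU2-94 at 1 µM would be called lower (-0.33, adjusted p = 0.0424).

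Of the fatty acid genes at 72 h, SCD was at 22518, 24258 and 23592 in vehicle, 27780, 26983 and 27879 with AU2-94 at 1 µM and 27633, 26884 and 28390 at 2 µM. It was at 28568, 28522 and 30007 with atirmociclib at 1 µM and 28690, 32920 and 33516 at 2 µM. These groups lay above vehicle and were called higher, by 0.23, 0.24, 0.31 and 0.43 with an SE of 0.06 (adjusted p from 1.71e-05 to 0.00729). Ribociclib overlapped vehicle (24043, 19863 and 23576, -0.06, adjusted p = 0.463). ACLY stood above its vehicle range of 10246 to 11038 in all treated libraries and was called higher by 0.19 to 0.34. ACACA did so above a vehicle range of 13220 to 14240, by 0.19 to 0.38. FASN was called lower with AU2-94 at 1 µM (-0.12), atirmociclib at 1 µM (-0.19) and ribociclib (-0.35 ± 0.04, adjusted p = 1.27e-06), and its 3 ribociclib libraries (74372, 72827 and 75873) were the lowest of the time point.

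Whether each effect itself differed between the time points was tested over all 36 libraries, as the log2 fold change at 72 h minus that at 24 h. Of the 29 genes, nearly all that passed went towards lower values at 72 h. The shares of all genes given here are for both directions together. Their split by direction was not determined, so the direction is not shown to be particular to the 29 genes. With AU2-94 15 genes passed at 1 µM and 11 at 2 µM, all towards lower values, against 21.6% and 18.5% of the 16850 genes tested, in either direction. With atirmociclib at 1 µM 20 passed, 19 of them towards lower values (21.9% of all genes), and at 2 µM 18 passed, 16 towards lower values (21.6%). With ribociclib all 18 that passed went towards lower values (20.2%). The median change of the 29 genes was -0.32, -0.23, -0.48, -0.31 and -0.35 in that order. With STARD4 the change was -0.87, -0.70, -0.66, -0.65 and -0.73 (SE 0.19, adjusted p from 0.00134 to 0.0152), and with ACAT2 -0.66, -0.36, -0.72, -0.60 and -0.45 (SE 0.09). The exceptions were TM7SF2, whose increase grew with atirmociclib at 1 µM (0.40 ± 0.08, adjusted p = 0.000424) and at 2 µM (0.37 ± 0.08, adjusted p = 0.000845), and SCAP with atirmociclib at 2 µM (0.32 ± 0.09, adjusted p = 0.0126).

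Some genes were called higher at 24 h and lower at 72 h under the same treatment. With atirmociclib at 1 µM these were 7 (HMGCS1, MVK, IDI1, CYP51A1, MSMO1, DHCR7 and FASN). HMGCS1 shows the size of the change there, with a mean of 2163 ± 145 normalised counts at 24 h against 1457 ± 115 in vehicle, and 1255 ± 54.3 at 72 h against 1585 ± 99.7 in vehicle (SD, n = 3). With AU2-94 at 1 µM these genes were IDI1 and NSDHL, with atirmociclib at 2 µM CYP51A1 and INSIG1, and with ribociclib MVK, DHCR7 and INSIG1. AU2-94 at 2 µM had none. The 24 h calls of CYP51A1 and INSIG1 that enter here were lost with equal totals and in some cases when 1 library was left out. The 72 h call of INSIG1 with atirmociclib at 2 µM was also lost in some such cases. No gene was called lower at 24 h and higher at 72 h. What share of all tested genes had such opposite calls was not determined. The opposite calls are therefore not shown to be particular to the genes described here.

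**Figure D4:**
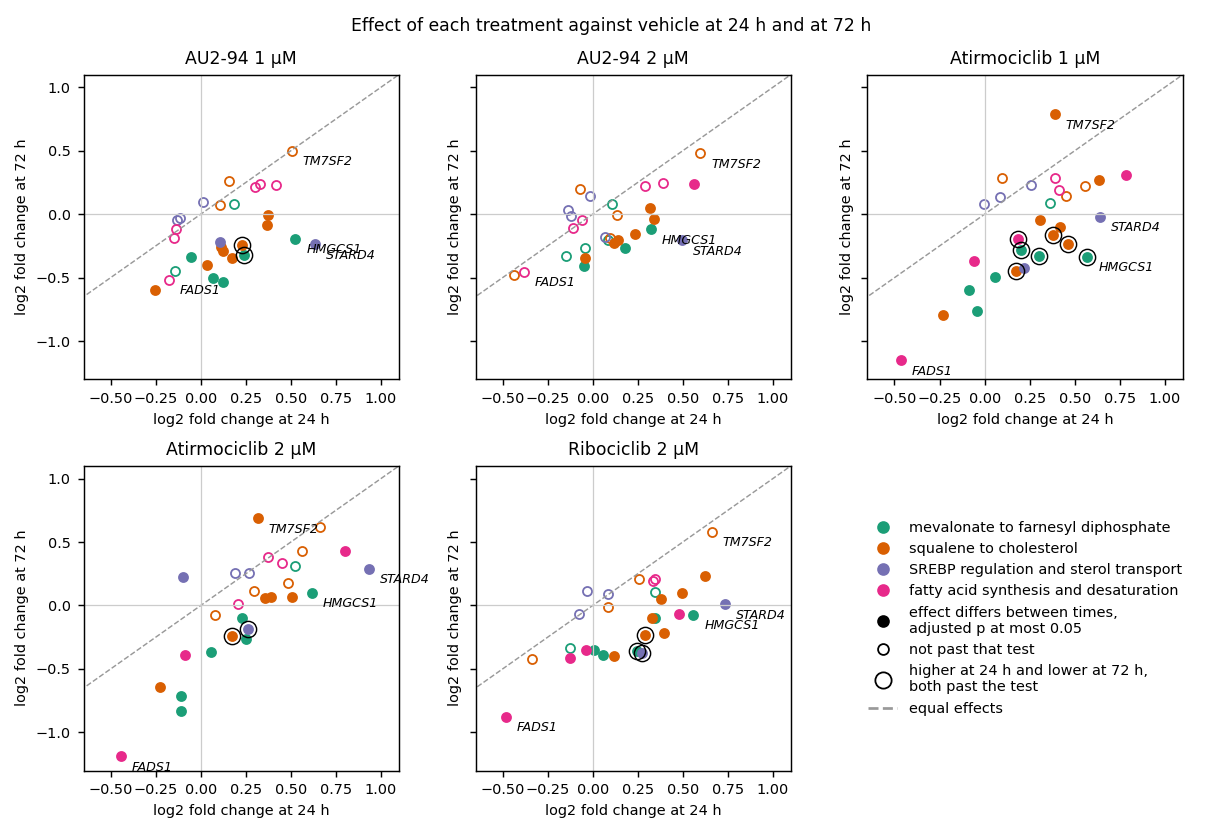
Log2 fold change of each of the 29 genes against vehicle at 24 h (horizontal axes) and 72 h (vertical axes), 1 panel per treatment, coloured by role. Filled points are genes whose effect differed between the times (adjusted p at most 0.05; 15, 11, 20, 18 and 18 genes), ringed points were called higher at 24 h and lower at 72 h, and most points lie below the dashed line of equal effects.

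The vehicle libraries themselves changed between the time points. Of the 29 genes, 14 were higher in vehicle at 72 h than at 24 h and 0 lower, against 3.85% and 3.64% of all genes tested, and the median log2 change was 0.21. With equal totals the numbers were 11 and 1, and the share of higher calls among all called genes fell from 51.4% to 27.2%. The largest rise was that of STARD4, from 268, 179 and 290 to 503, 525 and 457 (1.03 ± 0.14, adjusted p = 5.07e-06, and 0.82 without replicate 2 at 24 h). Next came FADS2, from 13109, 12482 and 10599 to 21533, 21097 and 22515 (0.85 ± 0.07, adjusted p = 1.28e-09), and SCD (0.78 ± 0.07, adjusted p = 5.62e-09). FASN rose from 59860, 57135 and 52251 to 89557, 97057 and 97449 (0.75 ± 0.05, adjusted p = 2.69e-11). SREBF1 rose by 0.65 ± 0.06 (adjusted p = 1.44e-08), FADS1 by 0.62 ± 0.09 (adjusted p = 2.01e-05) and INSIG1 by 0.41 ± 0.08 (adjusted p = 0.000939). The sets did not overlap in any of these genes.

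By role, 3 of 7 genes of the mevalonate arm rose in vehicle (ACAT2, MVK and FDPS), 4 of 11 between squalene and cholesterol (FDFT1, LSS, CYP51A1 and DHCR7), 3 of 5 regulators and carriers and 4 of 6 fatty acid genes. The call for ACAT2 (0.24, adjusted p = 0.0187) was lost with equal totals (0.18) and in 4 of 6 cases with 1 library left out (values from 0.21 to 0.24, for replicates 2 and 3 of both times). TM7SF2 had no call (2917, 3169 and 3027 against 2808, 3409 and 2933, 0.00 ± 0.06, adjusted p = 0.992). ACACA was at -0.09 (adjusted p = 0.188), and would be called lower after quantile normalisation (-0.21) or with equal totals (-0.14). EBP (0.21) would be called higher without replicate 3 at 72 h (0.28, adjusted p = 0.0481), and ACLY (0.17) without replicate 2 at 24 h (0.21, adjusted p = 0.0481).

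Set beside the vehicle change, the genes called lower at 72 h differed in how their treated levels compared with vehicle at 24 h. In FDPS and CYP51A1 the levels were close. FDPS was at 1811 to 1870 in vehicle at 24 h, 2443 to 2509 in vehicle at 72 h and 1688 to 2079 in the treated libraries at 72 h. CYP51A1 was at 2149 to 2440, 2583 to 3037 and 1996 to 2484 in the same sets. In INSIG1 the treated libraries at 72 h (1748 to 2226) overlapped vehicle at 24 h (1577 to 1908) and reached above it. Those of ACAT2 (615 to 900) and PMVK (281 to 490) mostly lay below vehicle at 24 h (878 to 959 and 457 to 554). In FADS1 the treated libraries at 72 h (1303 to 2634) reached below vehicle at 24 h (1989 to 2127), and in EBP all 15 (813 to 1161) were below vehicle at 24 h (1212 to 1320). FASN and FADS2 differed from these, since their treated libraries at 72 h (72827 to 96740 and 14283 to 20839) were all above vehicle at 24 h (52251 to 59860 and 10599 to 13109). The part of time and of seeding density in these levels cannot be told apart.

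**Figure D5:**
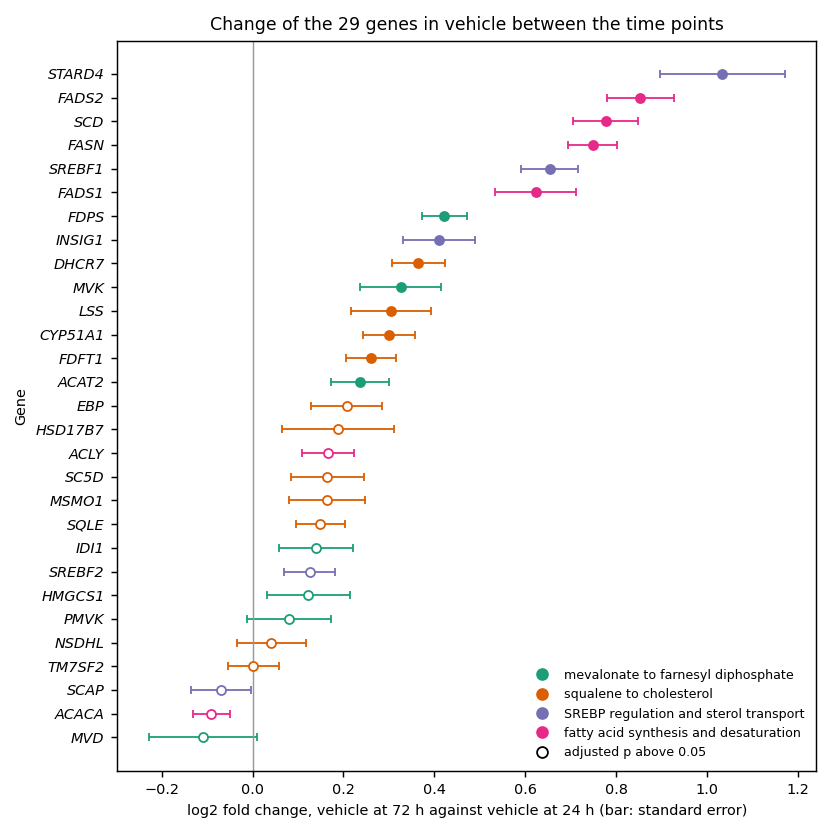
Log2 fold change of the 29 genes (vertical axis) in vehicle at 72 h against vehicle at 24 h (horizontal axis), with standard errors, coloured by role. Filled points passed an adjusted p of 0.05. STARD4 and 5 genes of fatty acid synthesis or its control lead, from 1.03 to 0.62, and no gene passed on the negative side.

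The compounds were compared with each other in 12 pairs, 6 at each time, at matched doses or between doses of a compound. At 24 h and 1 µM, atirmociclib gave higher values than AU2-94 in 8 genes and lower in 1, against 4.64% of all genes in either direction. LSS differed by 0.45 (95% interval 0.30 to 0.59, adjusted p = 0.000409), SCD by 0.36 (0.21 to 0.52), FASN by 0.32 (0.19 to 0.45) and FADS1 by -0.29 (-0.46 to -0.12). At 2 µM, 13 genes were higher and 1, TM7SF2, lower than with AU2-94 (9.44% of all genes). LSS differed by 0.43 (0.28 to 0.57), MSMO1 by 0.41 (0.25 to 0.57), SREBF1 by 0.39 (0.25 to 0.53) and TM7SF2 by -0.28 (-0.39 to -0.17, adjusted p = 0.00179). That number was 7 after quantile normalisation and 7 with only the compared groups fitted. Against ribociclib, atirmociclib at 2 µM was higher in LSS, SREBF1, FASN and SCD, by 0.25 to 0.35, and lower in TM7SF2 by -0.35 (-0.45 to -0.24), 5 genes in all (4.64% of all genes). Ribociclib and AU2-94 at 2 µM differed in 1 gene, FDFT1 (0.30, 0.20 to 0.41, adjusted p = 0.0366, and 0.0372% of all genes). No gene passed with the replicate block, quantile normalisation, no filter, no trend or only the compared groups. The same held in 5 of 6 cases when 1 library was left out. In the 28 others the difference lay between -0.10 and 0.30, with interval bounds from -0.29 to 0.56.

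The doses of a compound differed in 0 of the 29 genes at 24 h, both for AU2-94 (0.409% of all genes called) and for atirmociclib (0.0124%). The 2 µM minus 1 µM difference had interval bounds from -0.52 to 0.31 for AU2-94 and from -0.31 to 0.62 for atirmociclib, so that differences of such sizes are not excluded. At 72 h AU2-94 again gave 0 (0% of all genes, bounds from -0.29 to 0.46). For atirmociclib 5 genes were higher at 2 µM than at 1 µM (2.19% of all genes), namely HMGCS1 (0.44, 0.24 to 0.63), FDFT1 (0.34, 0.22 to 0.47), INSIG1 (0.24), DHCR7 (0.22) and FASN (0.21). This number was 2 to 4 whenever 1 library was left out. It was also smaller with quantile normalisation, equal totals, no trend and only the compared groups.

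At 72 h and 2 µM, atirmociclib differed from AU2-94 in 14 genes, 10 higher and 4 lower (19.8% of all genes). FDFT1 was higher by 0.57 (0.45 to 0.69, adjusted p = 1.11e-06), STARD4 by 0.49 (0.26 to 0.72) and LSS by 0.44 (0.23 to 0.64). FADS1 was lower by -0.73 (-0.93 to -0.54, adjusted p = 1.42e-05), PMVK by -0.56 (-0.75 to -0.38), ACAT2 by -0.31 and FADS2 by -0.28. At 1 µM the difference passed in 5 genes (8.24% of all genes), with FDFT1 and TM7SF2 higher (0.28 and 0.29) and FADS1, ACAT2 and INSIG1 lower (-0.64, -0.22 and -0.21). This number was 3 with the replicate block and 3 whenever 1 library was left out. Ribociclib was lower than AU2-94 at 2 µM in 4 genes, all of fatty acid synthesis (3.34% of all genes), FADS1 by -0.42 (-0.62 to -0.23), FADS2 by -0.31, FASN by -0.30 and SCD by -0.30. Against ribociclib, atirmociclib at 2 µM was higher in FDFT1, DHCR7, SREBF1, ACACA, FASN and SCD (0.19 to 0.50) and lower in ACAT2, PMVK and FADS1 (-0.49 to -0.31), 9 genes in all (9.18% of all genes).

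Other genes of the pathway were taken from 4 lists written from general knowledge. Their counts are to be read beside the shares of all genes given above for each treatment, 14.2% to 20.9% higher and 13.5% to 19.8% lower, and nothing particular to a list is drawn from them. Of 8 genes of SREBP cleavage and degradation, 0 to 3 were higher and 0 lower per treatment at 24 h, and 0 to 2 higher and 0 to 3 lower at 72 h. Of 8 genes of the isoprenoid branches, 1 to 2 were higher and 0 to 2 lower at 24 h, and 0 higher and 2 to 4 lower at 72 h. Among 10 genes of the liver X receptor and sterol export, 3 to 5 were higher and 1 to 2 lower at 24 h, and 2 to 5 higher and 0 to 1 lower at 72 h. Among 12 further lipogenic genes 1 to 5 were higher and 2 to 3 lower at 24 h, and 1 to 4 higher and 4 to 6 lower at 72 h. The genes called in the same direction in all 5 treatments included ELOVL5, an elongase of polyunsaturated fatty acids, which was higher at 24 h (0.35 to 0.56) and 72 h (0.63 to 1.14). OSBP, an oxysterol-binding protein, was higher at both times (0.31 to 0.47 and 0.16 to 0.34), as were LPCAT3, NPC2 and FNTA at 24 h. TMEM97, a sterol-responsive membrane protein, was lower at both times (-0.43 to -0.30 and -0.72 to -0.44). ACACB was lower at 24 h (-1.21 to -0.71), and MID1IP1, PCYT2 and COQ2 were lower at 72 h (-0.58 to -0.30). The sterol exporter ABCA1 was lower at 24 h (-2.31 to -1.70) at low levels, from 145, 45.1 and 122 in vehicle to 10.8 to 43.7 in the treated libraries. At 72 h its values ran from 0.33 to 0.93, with a higher call in 1 treatment. In vehicle it was lower at 72 h than at 24 h (-1.47, adjusted p = 0.00683), with a mean of 33.1 at 72 h.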

How the data were processed

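LNCaP libraries were prepared from total RNA. The authors aligned the reads to GRCh38 with STAR 2.6.1d, per the labels, and normalised with DESeq2. The counting program, annotation and use of strand are not given in the sources used here. The deposited values are a signal, normalised counts that are not whole numbers. Only 22.1% to 51.5% of values under 10 were whole multiples of the smallest step (within 0.02 of a step), so that reads could not be recovered, no count test was run and the sequencing depth is unknown. All columns belonged to labelled samples, and no pair of libraries was identical.

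Genes at 10 or more in at least 3 fitted libraries were tested with limma 3.58.1 in R 4.3.3 (lmFit, eBayes with trend) on log2(normalised count + 1). The 18 libraries of a time point were fitted together, and all 36 for changes between times. Benjamini-Hochberg adjustment ran over all genes of a contrast. SDs are over the 3 libraries of a group. SEs are those of the limma difference between groups, with a variance estimated over all fitted libraries and moderated by eBayes. The script was tested on simulated data. The replicate number is given as a batch in the labels. Whether same-numbered libraries of different groups were handled together is not stated in the sources used here. Same-numbered libraries deviated together little (mean correlation over genes 0.0018 at 24 h, from -0.090 to 0.112 over 45 pairs of groups, and -0.0022 at 72 h, from -0.080 to 0.050). The replicate block was an alternative, as were a pseudocount of 8, other filters, quantile normalisation, equal totals, no trend, only the compared groups, and leaving out each library. Values in every library were given for the regulators, STARD4, up to 6 genes per time and direction called in all 5 treatments with the largest mean change, and the 3 largest vehicle changes. The genes, lists and tests were chosen with earlier results of these data known. Exon overlaps are from GENCODE v44.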

Additional observations from a re-analysis of the deposited data

Results flagged for a closer look

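The effect of a treatment differed between 72 h and 24 h, by the test of the difference over 36 libraries with limma, in 15 of the 29 genes with AU2-94 at 1 µM, 11 at 2 µM, 20 with atirmociclib at 1 µM, 18 at 2 µM and 18 with ribociclib. The genes below were called higher at 24 h and lower at 72 h, and the values are the log2 effect at 72 h minus that at 24 h. They were chosen for these opposite calls and for passing the test of the difference. The negative sign and the low adjusted p therefore follow from the choice. What share of all tested genes had such opposite calls was not determined. With AU2-94 at 1 µM, IDI1 changed by -0.56 (adjusted p = 0.000566) and NSDHL by -0.47 (adjusted p = 0.00175). With atirmociclib at 1 µM, HMGCS1 changed by -0.91 (adjusted p = 3.99e-06), MSMO1 by -0.69, MVK by -0.63, CYP51A1 by -0.62, DHCR7 by -0.54, IDI1 by -0.48 and FASN by -0.38. With atirmociclib at 2 µM, CYP51A1 changed by -0.41 and INSIG1 by -0.45. With ribociclib, MVK changed by -0.61, DHCR7 by -0.52 and INSIG1 by -0.65 (adjusted p = 7.89e-05). The 24 h calls of CYP51A1 and INSIG1 behind these choices were lost with equal totals and in some cases when 1 library was left out. The 72 h call of INSIG1 with atirmociclib at 2 µM was also lost in some such cases. The vehicle libraries of each time enter these differences for all treatments, and seeding density changed with time, so that the parts of treatment length and density cannot be told apart.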

How the results depend on the processing

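Among 209 changes against vehicle or between vehicle times (19 genes given library by library, 11 comparisons), no called value changed sign under any alternative, while some values near 0 without a call did. A pseudocount of 8 kept all 209 on their side of the threshold, the mean filter 208, no filter and no trend 204 each, only the compared groups 202, equal totals 193 and quantile normalisation 191. Of 1254 values with 1 library left out, 61 calls were lost and 15 gained. Scaling changed counts and medians as follows. With quantile normalisation, the numbers lower were 3 (AU2-94 at 1 µM, 24 h) and 1 (vehicle), the medians 0.23 (atirmociclib at 1 µM, 24 h) and -0.15, -0.068 and -0.055 (AU2-94 at 1 and 2 µM and atirmociclib at 1 µM, 72 h), and the numbers differing 7 (atirmociclib and AU2-94 at 2 µM, 24 h), 0 (ribociclib and AU2-94, 24 h) and 2 (atirmociclib doses, 72 h). With equal totals, the numbers lower were 3 (AU2-94 at 1 µM, 24 h), 4 (atirmociclib at 2 µM, 24 h) and 1 (vehicle), the medians 0.24, 0.19 and 0.21 (atirmociclib at 1 and 2 µM and ribociclib, 24 h), -0.0076 (atirmociclib at 2 µM, 72 h) and 0.15 (vehicle), and the numbers differing 9 (atirmociclib and AU2-94 at 1 µM, 72 h) and 3 (atirmociclib doses, 72 h). Equal totals also lowered the share of higher calls among all genes called, from 51.8% to 39.9%, 53.5% to 38.0% and 52.4% to 40.3% (atirmociclib at 1 and 2 µM and ribociclib, 24 h), and from 51.5% to 39.3% (atirmociclib at 2 µM, 72 h). With no filter, 1 gene was lower with atirmociclib at 1 µM (24 h), 0 differed between ribociclib and AU2-94 (24 h) and 3 between atirmociclib and AU2-94 at 1 µM (72 h). With no trend the numbers differing were 0 (ribociclib and AU2-94, 24 h), 3 (atirmociclib and ribociclib, 24 h), 2 (ribociclib and AU2-94, 72 h) and 1 (atirmociclib doses, 72 h). With only the compared groups they were 7 (atirmociclib and AU2-94 at 2 µM, 24 h), 0 and 2 (ribociclib and AU2-94, 24 h and 72 h) and 3 (atirmociclib doses, 72 h), and 0 genes were lower with AU2-94 at 1 µM (24 h). With the replicate block they were 0 (ribociclib and AU2-94, 24 h) and 3 (atirmociclib and AU2-94 at 1 µM, 72 h). Among the 209 changes, the block altered the calls given for SREBF1 and SREBF2 at 72 h and no other. The cause of these changes was not tested. Leaving out 1 library gave the following ranges. At 24 h the number lower was 0 to 5 (AU2-94 at 1 µM, with 5 without vehicle replicate 3 and 0 without vehicle replicate 1 or 2 or replicate 3 of the group), 1 to 2 (atirmociclib at 1 and at 2 µM) and 2 to 4 (ribociclib, with 4 without vehicle replicate 3), and the median with AU2-94 at 2 µM was 0.032 to 0.14, lowest without vehicle replicate 3. At 72 h the medians were -0.16 to -0.071 (AU2-94 at 2 µM) and 0.042 to 0.14 (atirmociclib at 2 µM). The numbers differing at 24 h were 5 to 8 (atirmociclib and AU2-94 at 1 µM, with 5 without AU2-94 replicate 3), 8 to 14 (at 2 µM, with 8 without AU2-94 replicate 1), 0 to 1 (ribociclib and AU2-94, with 1 only without AU2-94 replicate 3) and 2 to 5 (atirmociclib and ribociclib, with 2 without atirmociclib replicate 2), and at 72 h 3 to 3 (atirmociclib and AU2-94 at 1 µM), 2 to 5 (ribociclib and AU2-94, with 2 without AU2-94 replicate 3) and 2 to 4 (atirmociclib doses).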
